A study of Drosophila melanogaster with 10 samples.

Results

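The genes described here are the chemosensory receptor and odorant-binding protein genes of Drosophila melanogaster. They were taken as every gene with a probe set of its own whose symbol in the platform annotation starts with Gr, Or, Ir or Obp followed by a digit. The rule found 212 genes of the 11982 genes measured by probe sets of 1 gene: 56 gustatory receptor genes (Gr), 56 odorant receptor genes (Or), 53 ionotropic receptor genes (Ir) and 47 odorant-binding protein genes (Obp). These genes were covered by 235 probe sets, and a gene with several was represented by its brightest over the 10 arrays. The choice used names and not differences between groups. The olfactory co-receptor Orco and the pheromone-binding protein gene lush carry names of another form and are described with the accessory genes.

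Odorant receptors are ligand-gated cation channels of olfactory neurons and work together with Orco. Gustatory receptors detect sugars, bitter compounds and carbon dioxide, and ionotropic receptors, relatives of glutamate-gated channels, detect acids, amines, humidity and temperature with the help of the co-receptors Ir8a, Ir25a and Ir76b. Odorant-binding proteins are small secreted carriers of hydrophobic molecules, found in the fluid around sensory neurons and also in other tissues. The antennal part of the eye-antenna imaginal disc, an epithelium of the larva, forms the adult antenna, whose olfactory neurons arise after pupation begins.

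The data are 10 single-colour Affymetrix arrays, 1 RNA sample each, in 5 groups of 2, from flies raised at 25 °C. Whole larvae of the third instar, 20 per sample, were controls, Jarid2 mutants or animals labelled E(z) RNAi. Cells of eye-antenna discs, about 500 discs per sample from larvae late in the third instar, were dissociated and sorted by GFP fluorescence, and came from controls or Jarid2 mutants. The series asks which functions of Jarid2, a partner of Polycomb repressive complex 2, need that complex, whose methyltransferase is E(z).

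The control groups carry the genotype label wild type. The Jarid2 mutant is the line Jarid2MB00996/TM3, an insertion line held with the balancer TM3, and the labels do not say if the animals were homozygous. The E(z) animals carry UAS-E(z)-RNAi, no driver is named, and their genotype field reads wild type. The labels do not say what GFP marked or which sorted fraction was used. The labels do not say that the 2 arrays of a group came from separate cultures, so the p-values measure the spread between samples, which may be technical.

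The Jarid2 probe set read 9.63 and 9.48 in larval controls, 4.19 and 4.26 in the larval mutants, 10.14 and 10.10 in disc controls and 7.64 and 6.80 in the disc mutants. E(z) read 8.53 and 8.31 in larval controls. The E(z) RNAi larvae read 9.25 and 9.56, which is higher and not lower, so that group is called "labelled E(z) RNAi" throughout. All values are log2 expression values as deposited. Larval arrays had lower quartiles of 5.09 to 5.30 and medians of 7.39 to 7.54, and disc arrays 4.20 to 4.27 and 5.55 to 5.62, so a level in one tissue cannot be set directly against the other. Probe sets differ in how brightly they report their RNA, so the level of 1 gene is compared between groups, and counts over a level or lists of the brightest probe sets describe signal and not amounts of RNA. In whole animals or sorted cells, fewer cells of a type and less RNA per cell cannot be told apart.

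Most chemosensory genes read near the dim end of the arrays, and the exceptions were mainly odorant-binding protein genes. A group mean above log2 6 was reached by 32 of the 212 genes in larval controls, where 82.3% of all genes were above that level. The count was 29 in larval Jarid2 mutants (82.1% of all genes), 31 in larvae labelled E(z) RNAi (83.1%), 9 in disc controls (58.7%) and 11 in disc Jarid2 mutants (57.3%). The order of larvae and discs in these counts depends on the scaling: quantile normalization of all arrays gave 21 in larval controls and 36 in disc controls, and centring each array on its median gave 50 in disc controls and 59 in disc mutants. The median of the 212 genes was 4.54 in larval controls, at percentile 6.01 of all genes, and 4.08 in disc controls, at percentile 15.4. These counts carry no test.

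The families differed in this description. Of the 47 Obp genes, 22 were above 6 in larval controls, 20 in larval Jarid2 mutants, 22 in larvae labelled E(z) RNAi, 8 in disc controls and 7 in disc Jarid2 mutants. Of the 165 receptor genes, 10, 9, 9, 1 and 4 were above 6 in the same order of groups. In larval controls 13 Obp genes passed log2 8 and 5 passed log2 12, while 0 receptor genes passed log2 8. Below the lower quartile of all probe sets in larval controls lay 43 of 56 Gr, 45 of 56 Or, 39 of 53 Ir and 15 of 47 Obp genes.

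**Figure D1:**
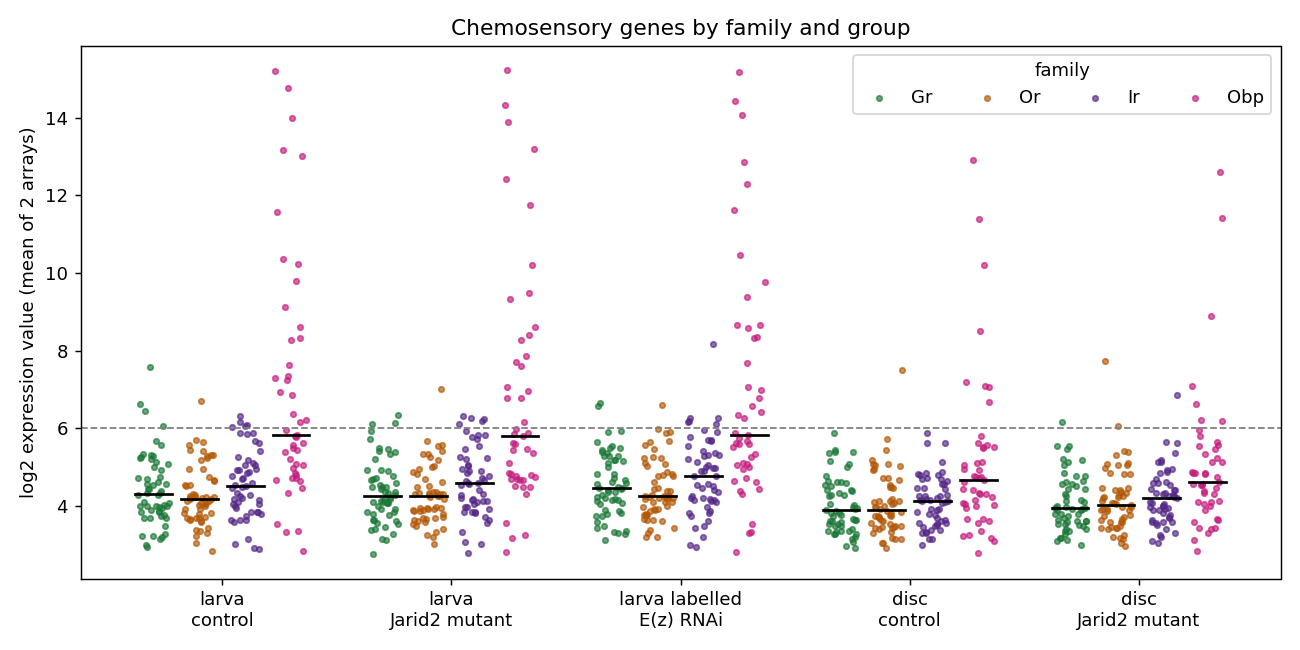
Log2 expression value of each of the 212 genes (mean of 2 arrays, vertical axis) by group, with 1 point per gene, colour for family and a black bar for the family median; the dashed line is log2 6. Obp genes spread up to 15.2 in larvae, while receptor genes stay under 8.2 in all groups.

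The difference between the families did not hang on the level chosen. At log2 5, 72.3% of Obp genes and 25.5% of receptor genes were above the level in larval controls, beside 90.9% of all genes. At log2 7 the shares were 36.2%, 0.61% and 73.3%. In disc controls the shares at log2 5 were 36.2% for Obp genes, 12.1% for receptor genes and 69.0% for all genes.

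**Figure D2:**
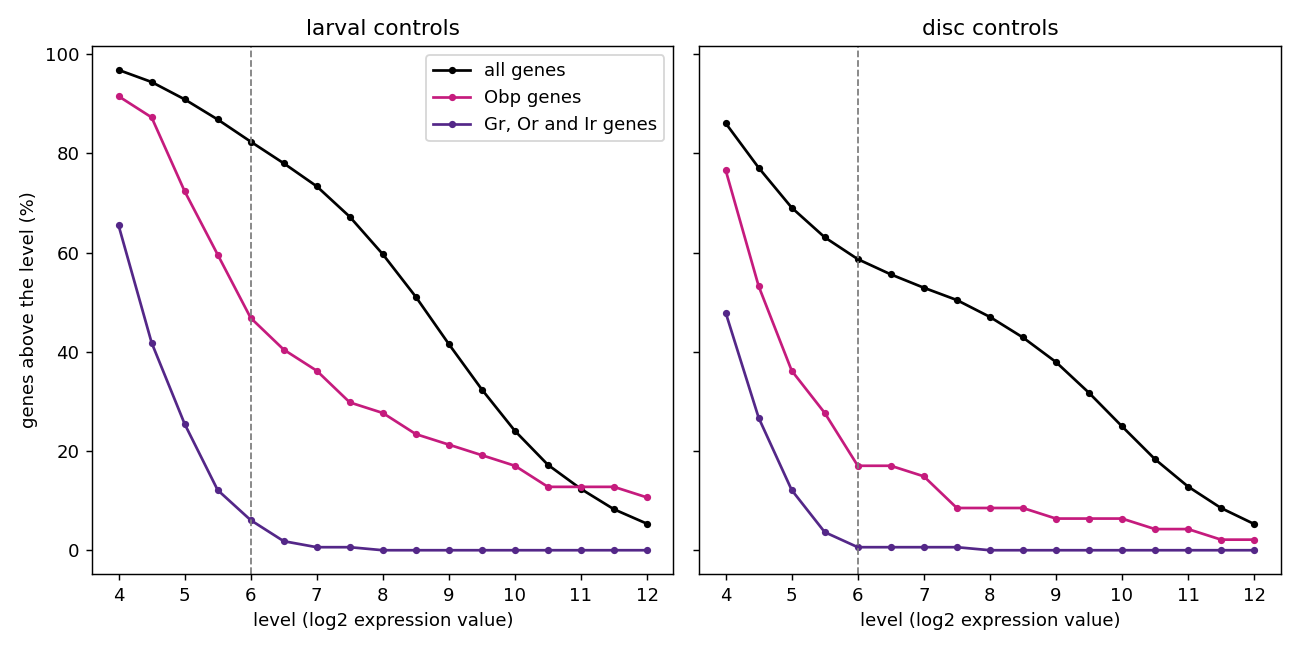
Percent of genes (vertical axis) whose group mean exceeds a given log2 expression value (horizontal axis) in larval controls and disc controls, for all 11982 genes, 47 Obp genes and 165 receptor genes; the dashed line is log2 6. The receptor curve lies below the Obp curve, and at log2 6 both lie below that of all genes.

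Taken over the 5 groups, 38 genes were above 6 in at least 1 group and 174 in none. The 7 above 6 in all groups were Obp44a, Obp99b, Obp99a, Obp56d, Obp56a, Obp83g and the antennal odorant receptor gene Or43b. A further 16 were above 6 in all 3 larval groups and in 0 disc groups, among them Obp99c and Obp49a, which encodes a carrier of bitter compounds in taste sensilla. Obp69a and Or2a passed 6 in disc mutants alone, with disc control means of 5.81 and 5.71 and mutant means of 6.19 and 6.05. Neither difference was called.

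Membership of these counts near the level was a matter of small differences. In larval controls the genes just above were Ir40a (6.04), a receptor subunit for dry air, Gr22a (6.06) and Ir68b (6.06), and those just below were Obp73a (5.96), the cooling receptor subunit Ir21a (5.88) and Ir41a (5.88). In larval Jarid2 mutants Gr32a (6.11), Ir8a (6.12) and the sugar receptor gene Gr61a (6.15) were just above, and Obp47a (5.99), Ir41a (5.93) and Gr22a (5.93) just below. In larvae labelled E(z) RNAi Ir41a (6.11), Ir68a (6.17) and Ir40a (6.20) were just above, and Or67a (5.98), Ir56c (5.95) and Gr22a (5.92) just below. So Ir41a, Ir40a and Gr22a changed sides between larval groups through small differences.

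In disc controls Obp18a (6.69), Obp56d (7.07) and Obp28a (7.09) were just above log2 6, and Ir68a (5.88), Gr61a (5.87) and Obp69a (5.81) just below. In disc Jarid2 mutants Or2a (6.05), Gr61a (6.17) and Obp69a (6.19) were just above, and Obp18a (5.97), Obp19b (5.80) and Ir40a (5.65) just below. The disc count thus gained Ir68a, Gr61a, Obp69a and Or2a and lost Obp18a and Obp28a. Only Ir68a and Obp18a among these 6 passed the test between the disc groups.

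The 5 brightest members of each family were partly the same genes in the 2 control groups. For Obp genes they were Obp99b, Obp56d, Obp44a, Obp99c and Obp56a in larvae, with means from 13.01 to 15.2, and Obp99a, Obp44a, Obp99b, Obp83g and Obp56a in discs, with means from 7.19 to 12.9. In whole larvae Obp44a read 13.96 and 14.02 in the controls, 13.94 and 13.84 in the Jarid2 mutants and 14.04 and 14.07 in the labelled E(z) RNAi group. The disc controls were at 11.80 and 10.99, and the disc mutants at 11.71 and 11.14. The disc groups of Obp44a overlapped, and no comparison of Obp44a between groups of a tissue was called.

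Among receptor genes Or43b read 6.86 and 6.57 in larval controls and 7.38 and 7.63 in disc controls. The other Or genes named by this rule in larvae were Or43a, Or67a, Or85e and Or59b, with means from 5.43 to 5.70. In discs Or2a, Or43a, Or47b, a receptor for fly odours, and Or1a had means from 5.09 to 5.71. The Gr genes were Gr97a, Gr61a, Gr59f, Gr22a and Gr43a in larvae (5.68 to 7.58) and Gr61a, Gr39a, Gr63a, Gr47b and Gr77a in discs (5.36 to 5.87). The Ir genes were Ir76a, Ir68a, Ir8a, Ir68b and Ir40a in larvae (6.04 to 6.31) and Ir68a, Ir40a, Ir68b, Ir56d and Ir93a in discs (4.87 to 5.88). Ir68a, Ir40a and Ir93a are subunits of receptors for humidity. The probe sets used for all 3 read above the lower quartile in disc controls. Ir40a and Ir93a each had 2 probe sets, which disagreed. Over all arrays, larval and disc together, the brighter and the dimmer averaged 5.865 and 3.616 for Ir40a and 4.988 and 3.233 for Ir93a. The statement on the lower quartile therefore holds for the brighter probe sets of Ir40a and Ir93a only.

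The receptor genes with well-known roles were mostly dim in all groups. Ir8a, the co-receptor for acid-sensing receptors, read 6.11 and 6.08 in larval controls and 4.71 and 4.66 in disc controls. Ir25a, the broad co-receptor, read 5.16 and 5.08 in larval controls and 4.83 and 4.58 in disc controls, and Ir76b, the co-receptor for amines and amino acids, 4.41 and 4.58 against 4.15 and 4.14. Ir8a was above the lower quartile of the larval arrays, and Ir76b was below it.

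Gr43a, the fructose receptor, read 5.69 and 5.67 in larval controls and 5.19 and 4.84 in disc controls. The sugar receptor Gr5a read 5.64 and 5.48 against 4.54 and 4.67, and the bitter receptor Gr66a 3.93 and 4.07 against 4.38 and 4.43. The carbon dioxide receptor subunits read 5.00 and 5.02 for Gr21a and 4.55 and 4.12 for Gr63a in larval controls, and 4.56 and 4.67 for Gr21a and 5.48 and 5.31 for Gr63a in disc controls. Gr28a read 5.12 and 5.06 against 4.50 and 4.32, and Gr28b, whose products act in warmth and light avoidance, 4.45 and 4.33 against 3.26 and 3.14. None of these 7 Gr genes reached log2 6 as a group mean. Orco itself read between 5.04 and 5.34 on the 6 larval arrays and between 4.46 and 4.75 on the 4 disc arrays.

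A list of 25 odorant receptor genes of the larval olfactory organ, 24 of them measured, had the same character. In larval controls 22 of the 24 lay below the lower quartile of the arrays and 0 were above log2 6. In the 3 larval comparisons, the disc comparison and the comparison of the Jarid2 effects limma called 0 of the 24. At an unadjusted p under 0.05 there were 0 for larval Jarid2 mutants, 3 for labelled E(z) RNAi, 4 between those groups, 5 in discs and 1 for the difference of effects, where 10.1%, 14.4%, 15.5%, 25.9% and 14.5% of all genes were. Whether a probe set this dim reports RNA of its gene cannot be told from the deposited values, which hold no detection calls.

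Several Obp genes lie side by side on a chromosome. In the run Obp56a to Obp56f on chromosome arm 2R, 5 of 6 genes were above log2 6 in larval controls and 2 of the 6 in disc controls. In the run Obp83cd, Obp83ef and Obp83g on arm 3R, 2 of the 3 were above 6 in larval controls and 1 in disc controls. The other Obp runs had fewer in larval controls, with 1 of 2 for Obp56g and Obp56h and 0 of 3 for Obp57a to Obp57c. The run of Obp59a and Obp58b to Obp58d had 2 of 4, and Obp19a to Obp19d had 1 of 4. None of the genes in these other runs was above 6 in disc controls. Over the arms, 16 of 71 members on 2R, 6 of 51 on 3R, 3 of 33 on 2L, 4 of 30 on 3L and 3 of 27 on X were above 6 in larval controls. Shares of all genes by arm were not counted, so these counts cannot be set against genes at large.

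**Figure D3:**
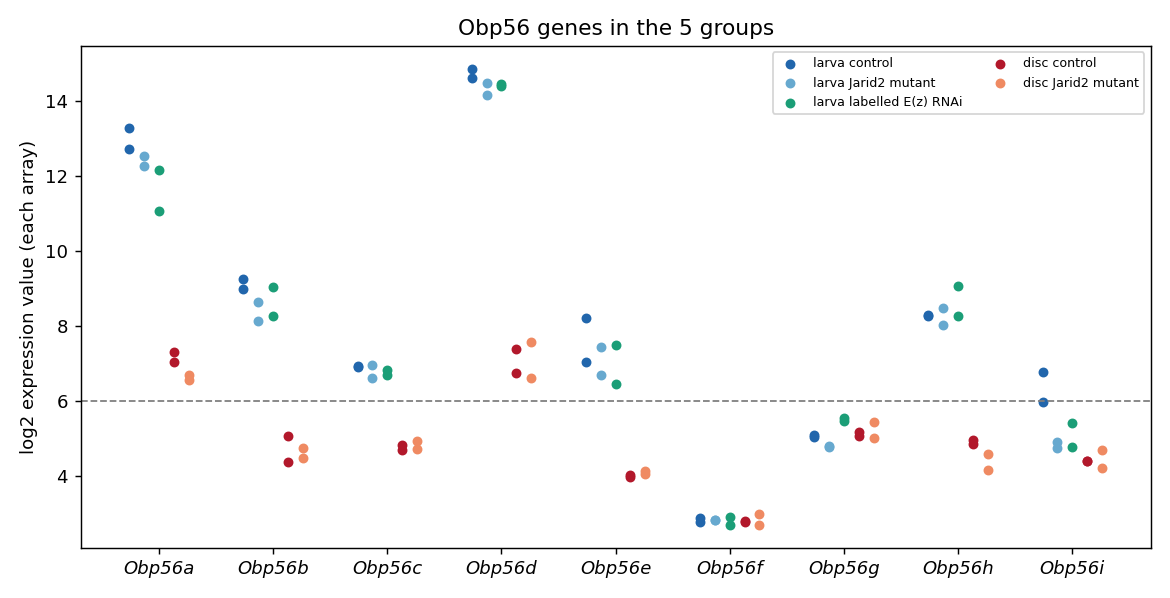
Log2 expression value on each array (vertical axis) of the 9 Obp56 genes (horizontal axis), with colour for the 5 groups of 2 arrays; the dashed line is log2 6. Within a gene, as deposited, Obp56a to Obp56e are higher on all larval arrays than on all disc arrays, though Obp56c was not called lower in discs under all 4 scalings, and Obp56f stays near 2.8 in all groups.

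The comparison of disc controls with larval controls asks which chemosensory genes each tissue holds. As deposited, 112 of the 212 genes were called lower in discs and 16 higher, where 79.4% of all genes were called (46.1% lower and 33.3% higher), with limma and Benjamini-Hochberg adjustment over 18769 probe sets at an adjusted p under 0.05. That split depends on how the tissues are scaled. After quantile normalization of all arrays it was 33 lower and 92 higher, after quantile normalization within each tissue 122 lower and 16 higher, and after centring each array on its median 15 lower and 186 higher. The median of all genes itself moved, from -0.24 as deposited to 0.34 with quantile normalization of all arrays and 1.64 with centring. Among the 212 genes, directions are therefore given only for the 31 called the same way under all 4 scalings. Shares of all genes called were counted only as deposited. The counts under the other scalings, and these 31 genes, thus cannot be set against genes at large.

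Of the genes called the same way, 15 were lower in discs, 13 of them Obp genes. Obp99c read 13.28 and 13.03 in larval controls and 4.58 and 4.67 in disc controls, a log2 difference of -8.54 ± 0.13 (SE, 2 arrays per group, limma adjusted p = 2.66e-09). Obp56d read 14.63 and 14.87 against 7.39 and 6.76 (-7.68 ± 0.32, adjusted p = 4.63e-07). Both disc arrays lay far under both larval arrays for each gene. Obp83ef (-5.99 ± 0.29), Obp56a (-5.82 ± 0.34), Obp99b (-5.00 ± 0.30), Obp49a (-4.78 ± 0.24), Obp56b (-4.40 ± 0.32) and Obp50d (-4.26 ± 0.21) were also lower. The 2 receptor genes were Gr97a and Ir21a. These sizes are as deposited. After centring, Obp99c differed by -6.65 and Obp50d by -2.38.

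The 16 genes higher in discs under all 4 scalings were 7 Gr, 4 Or, 2 Ir and 3 Obp genes. Disc control means of Gr58c (3.59), Gr47a (3.65), Gr58a (3.42), Ir20a (4.12) and Ir94b (4.18) lay below the lower quartiles of both disc control arrays (4.23 and 4.20). Quantile normalization of all arrays and centring moved the median difference of all genes upward, so agreement under them adds little for this direction. Obp99a read 11.49 and 11.64 in larval controls and 12.94 and 12.85 in disc controls, a difference of 1.33 ± 0.18 (adjusted p = 0.000214). Obp83g read 7.45 and 7.24 against 8.57 and 8.46 (1.17 ± 0.26, adjusted p = 0.00427), and Or2a, a receptor of the larval olfactory organ, 4.25 and 4.09 against 5.65 and 5.77 (1.54 ± 0.14, adjusted p = 2.94e-05). The disc arrays were above the larval arrays for all 3 genes. Smaller differences were found for Gr63a (1.06 ± 0.17), Or1a (0.97 ± 0.18), Obp69a (0.83 ± 0.18) and Or43b (0.80 ± 0.16). Or71a, Ir94b and Gr92a were higher by 0.74, 0.54 and 0.54, at disc levels under log2 4.6.

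**Figure D4:**
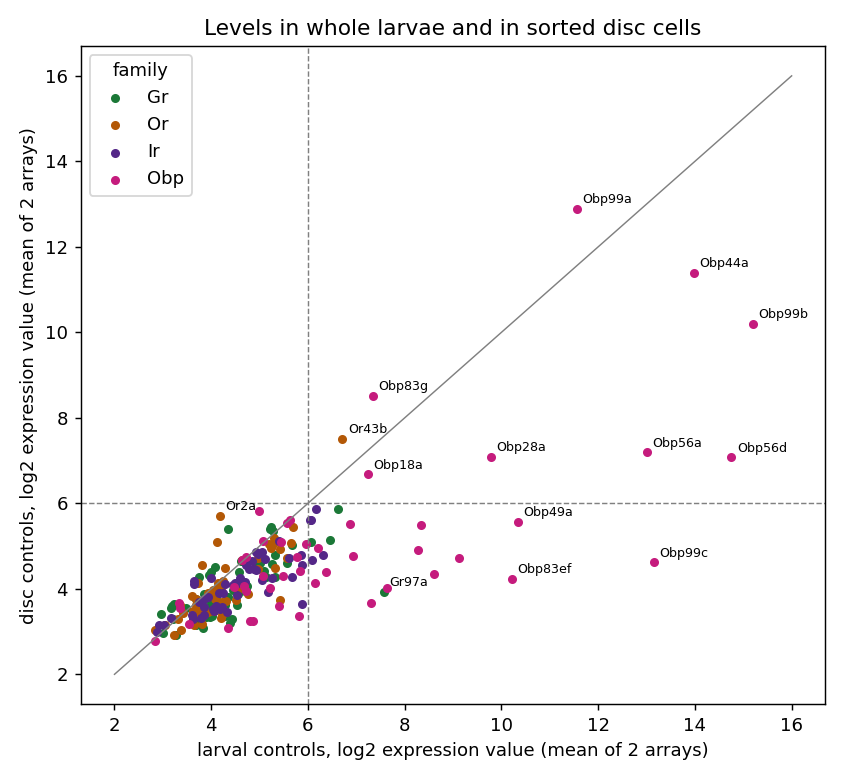
Mean log2 expression value in disc controls (vertical axis) against larval controls (horizontal axis) for the 212 genes, coloured by family; the solid line marks equal values and the dashed lines log2 6. Obp99c, Obp56d, Obp83ef and Obp56a lie far under the line, and Obp99a and Obp83g above it; where the line falls depends on the scaling of the tissues.

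The accessory genes ran both ways. As deposited, 20 of 40 measured genes for accessory proteins and signal transduction were called lower in discs and 7 higher, beside 46.1% and 33.3% of all genes. The counts were 6 and 18 after quantile normalization of all arrays and 3 and 32 after centring, where shares of all genes were not counted. EbpIII and Phk-3, small secreted proteins of the chemosensory protein family, differed by -7.01 ± 0.36 and -2.79 ± 0.14 as deposited, and the pheromone-channel subunit genes ppk29 and ppk23 by 2.03 ± 0.21 and 1.31 ± 0.16. Of 20 measured genes of chemosensory neuron development, 15 were called higher in discs and 5 lower, or 17 and 2 both with quantile normalization of all arrays and with centring. As deposited, those higher included dan (5.30 ± 0.13), which acts in antennal identity, lz (5.15 ± 0.15), B-H1 (4.92 ± 0.15) and ss (4.10 ± 0.19), the antennal selector. The 5 lower were ap (-2.66 ± 0.27), acj6 (-2.53 ± 0.26), Dr (-1.25 ± 0.35), amos (-0.55 ± 0.16) and Poxn (-0.45 ± 0.13). All 6 measured photoreceptor markers, lz among them, were also called higher in discs as deposited.

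The comparison of larval Jarid2 mutants with larval controls asks what loss of Jarid2 does in the whole animal. Among the 212 genes 1 was called, Ir100a, where 0.918% of all genes were called (0.484% higher and 0.434% lower). Ir100a, a divergent ionotropic receptor gene, read 6.33 and 6.03 in mutants, beside 5.13 and 4.97 in controls, a difference of 1.13 ± 0.15 or 2.19-fold (limma adjusted p = 0.0445). Both mutant arrays were above both controls, and the labelled E(z) RNAi arrays, at 5.11 and 5.17, lay with the controls. The call did not survive the removal of any single larval array, with adjusted p-values between 0.105 and 0.359, and was lost in 12 of 16 alternatives in all.

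None of the 56 Gr, 56 Or and 47 Obp genes was called by limma, though 4, 4 and 6 of them had an unadjusted p under 0.05, beside 10.1% of all genes. The larger uncalled differences were downward in Gr97a, Obp56i and Obp49a and upward in Gr32a, a receptor for bitter compounds and male pheromone. Gr97a, a gustatory receptor gene, read 8.41 and 6.74 in controls, 4.36 and 4.61 in mutants and 5.08 and 5.67 in larvae labelled E(z) RNAi. The controls were above all other larval arrays but 1.68 apart, the widest gap between the larval control arrays among the 212 genes. The difference was -3.09 ± 0.54 (adjusted p = 0.101). It was called in 4 of 17 alternative analyses, among them the fit of all 10 arrays (limma adjusted p = 0.0174). That fit shares its estimate of spread with the less variable discs, which raises the number of larval calls. Without larval control 2, the control nearer the mutants, the difference was -3.93 and rested on a single control array.

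A set of testis marker genes had summed log2 levels of 13.4 and 14.4 in the 2 larval controls, so control 2, with the lower Gr97a value, had the higher testis sum. The sums were 13.7 and 13.4 in larval mutants and 13.9 and 13.1 in larvae labelled E(z) RNAi, and 13 of the 15 testis genes were above log2 6 in larval controls. Limma called 0 of the 15 testis genes between larval Jarid2 mutants and controls. Of 9 midgut markers it called 2 higher and 1 lower, and of 16 haemocyte markers 1 lower, beside 0.918% of all genes. No fat body, neuron, glia or photoreceptor marker was called. In labelled E(z) RNAi larvae 1 midgut marker was called higher and 1 haemocyte marker lower, beside 0.976% of all genes. The part of testis, midgut or haemocyte content in the Gr97a values was not tested.

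Obp56i read 4.76 and 4.91 in mutants, beside controls at 5.97 and 6.78 (-1.54 ± 0.33, adjusted p = 0.162). Mutants of Gr32a were at 6.25 and 5.97, beside controls at 5.09 and 5.42 (0.86 ± 0.17, adjusted p = 0.143). For Obp49a the mutants were at 9.55 and 9.13, beside controls at 10.16 and 10.54 (-1.01 ± 0.28, adjusted p = 0.301). In each the groups did not overlap, as was so for 33 of the 212 genes upward and 45 downward, beside 22.1% and 13.7% of all genes. Obp18a (0.62 ± 0.31) and Ir85a (0.59 ± 0.13) were further uncalled differences upward. The median difference of the 212 genes was 0.00, beside 0.01 over all genes.

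In larvae labelled E(z) RNAi 1 of the 212 genes was called against larval controls, Ir76a, where 0.976% of all genes were called (0.584% higher and 0.392% lower). Ir76a, a receptor subunit for amines, read 6.06 and 6.55 in controls, 7.97 and 8.39 in labelled E(z) RNAi larvae and 6.49 and 6.16 in Jarid2 mutants. Both labelled E(z) RNAi arrays were above the other 4 larval arrays. The difference was 1.88 ± 0.24 or 3.67-fold (limma adjusted p = 0.0404). The call did not survive the removal of any single larval array, with adjusted p-values between 0.104 and 0.202, while the difference stayed between 1.63 and 2.12. It was lost in 13 of 17 alternatives in all.

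The uncalled differences in this comparison again included Gr97a and Obp56i, which share their control arrays with the Jarid2 comparison. Gr97a differed by -2.20 ± 0.54 (adjusted p = 0.165) and Obp56i by -1.29 ± 0.33 (adjusted p = 0.173). Obp56a read 12.72 and 13.29 in controls and 11.09 and 12.18 in labelled E(z) RNAi larvae (-1.38 ± 0.39, adjusted p = 0.205). Upward, Gr58c read 3.22 and 3.15 against 4.19 and 4.12 (0.97 ± 0.14, adjusted p = 0.0607), at a level below the lower quartile of the arrays. Obp83g (1.02 ± 0.30) and Obp47a (0.92 ± 0.29) were further uncalled differences upward. Single arrays carried much of several of these values. Without labelled E(z) RNAi array 2 the differences of Obp83g and Obp47a were 0.56 and 0.61, without larval control 1 that of Gr97a was -1.36, and without labelled E(z) RNAi array 1 that of Obp56a was -0.83.

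The 2 arrays labelled E(z) RNAi read slightly higher in many dim genes. For 90 of the 212 genes both lay above both controls, and for 32 both lay below, beside 27.8% and 14.9% of all genes. The median difference of the 212 genes was 0.14 as deposited, beside 0.03 over all genes. After quantile normalization of all arrays it was 0.02, beside 0.03.

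The direct comparison of larval Jarid2 mutants with larvae labelled E(z) RNAi called 2 of the 212 genes, where 1.41% of all genes were called (0.718% higher and 0.693% lower). Ir100a was higher in the Jarid2 mutants by 1.04 ± 0.15 (adjusted p = 0.0463) and Ir76a lower (-1.86 ± 0.24, adjusted p = 0.0347). Removal of any single larval array ended the Ir100a call, and removal of any of the 4 compared arrays ended the Ir76a call. Gr32a (0.96 ± 0.17, adjusted p = 0.0742), Obp47a (-1.08 ± 0.29, adjusted p = 0.153), Gr23a (-0.91 ± 0.21, adjusted p = 0.117), Gr97a (-0.89 ± 0.54, adjusted p = 0.501), Obp56a (0.78 ± 0.39, adjusted p = 0.402) and Or71a (0.45 ± 0.21, adjusted p = 0.365) were not called. Obp56a differed by 0.23 without labelled E(z) RNAi array 1 and by 1.32 without array 2, and Or71a by 0.72 without Jarid2 mutant array 1 and by 0.18 without array 2.

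The comparison of disc Jarid2 mutants with disc controls asks what loss of Jarid2 does in the tissue that forms the antenna and eye. Of the 212 genes 3 were called, where 3.02% of all genes were called (0.668% higher and 2.35% lower). Obp99b fell, the humidity receptor subunit gene Ir68a rose and Obp18a fell. None of the 56 Gr and 56 Or genes was called by limma, with 7 and 9 at an unadjusted p under 0.05, beside 25.9% of all genes.

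Obp99b read 10.76 and 9.64 in disc controls and 6.29 and 6.15 in disc mutants. Both mutant arrays were far below both controls. The difference was -3.98 ± 0.37, or 15.8-fold (limma adjusted p = 0.0154). In the 6 larval arrays Obp99b read between 15.10 and 15.24, at the upper end of the array range, with no separation of the groups. The disc call was lost with quantile normalization of all arrays (-2.87, adjusted p = 0.0634) and when mutant array 1 (-4.05, adjusted p = 0.11) or mutant array 2 (-3.91, adjusted p = 0.15) was left out.

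Markers of blood cells moved with Obp99b in the discs. Of 16 haemocyte marker genes 13 fell in the disc mutants and 1, lz, rose, with a median difference of -4.89, and their summed log2 level was 14.7 and 15.7 in controls and 11.7 and 11.9 in mutants. The control array with the higher Obp99b value had the lower haemocyte sum. Markers of the fat body, where Obp99b is also known to be expressed, had sums of 11.8 and 11.9 in disc controls and 11.8 and 12.1 in disc mutants. Limma called 0 of the 7, with 1 at an unadjusted p under 0.05. Only FASN1 was above log2 6 in each disc group, at 11.69 and 11.82 in controls and 11.72 and 11.99 in mutants. That 1 gene makes up nearly all of the sums, so they cannot show whether fat body content changed. As deposited, the markers Fbp1, Fbp2 and Lsp2 read between 14.86 and 15.05 in larval controls. They read between 4.735 and 5.51 in disc controls and between 4.82 and 5.60 in disc mutants. Of 6 glial markers, whose sums were 12.29 and 12.14 against 12.06 and 11.99, repo, wrapper and Gs2 fell and gcm rose. The part of haemocyte, glial or fat body content in the Obp99b difference was not tested.

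Ir68a, a subunit of the receptor for moist air, read 5.94 and 5.82 in disc controls and 6.82 and 6.89 in disc mutants. Both mutant arrays were above both controls. The difference was 0.98 ± 0.09, or 1.97-fold (adjusted p = 0.0147). The call was lost with quantile normalization of all arrays (0.78, adjusted p = 0.0521), without disc control 2 (adjusted p = 0.0735), without mutant array 1 (adjusted p = 0.0899) and without mutant array 2 (adjusted p = 0.12).

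Obp18a read 6.72 and 6.65 in disc controls and 5.96 and 5.98 in disc mutants, a difference of -0.72 ± 0.08 (adjusted p = 0.0256). The 2 groups did not overlap. The call was lost in 7 of 13 alternatives, among them the removal of any single disc array, with adjusted p-values between 0.11 and 0.154, and the fit of all 10 arrays (adjusted p = 0.274). With quantile normalization of all arrays the difference was -0.41.

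**Figure D5:**
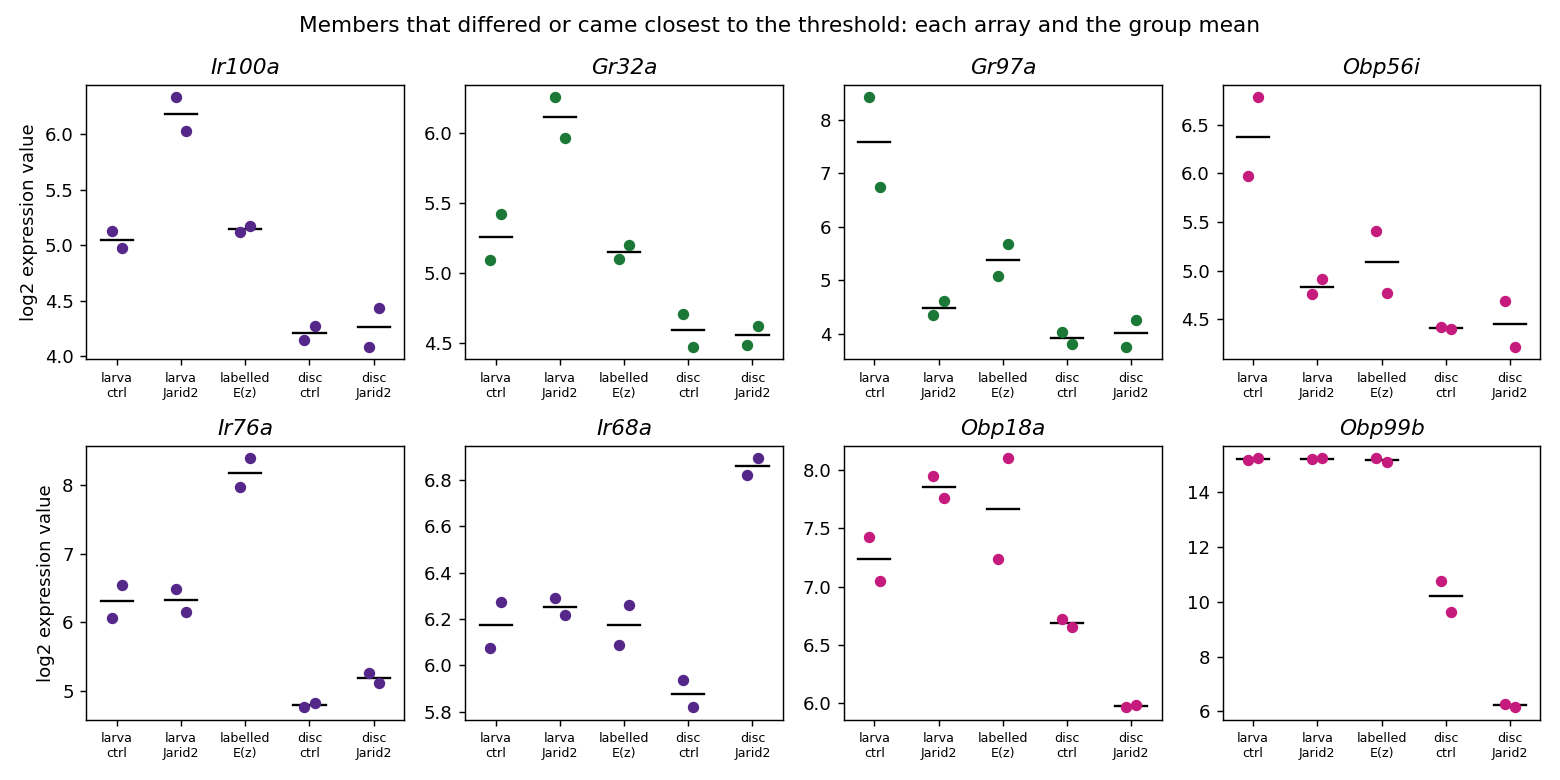
Log2 expression value on each array (vertical axis, own scale per gene) for 8 genes in the 5 groups, with 2 points per group and a bar for the group mean. Ir100a and Gr32a are higher in larval Jarid2 mutants, Ir76a in labelled E(z) RNAi larvae and Ir68a in disc mutants, while Obp99b and Obp18a are lower in disc mutants and Gr97a and Obp56i are higher in larval controls than in the other larval groups.

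Among the uncalled differences in the discs, Gr63a read 4.80 and 4.73 in mutants, beside controls at 5.48 and 5.31 (-0.63 ± 0.10, adjusted p = 0.0593), and Or1a 4.29 and 4.45 in mutants, beside controls at 4.95 and 5.24 (-0.73 ± 0.13, adjusted p = 0.0788). Obp56a differed by -0.56 ± 0.13 (adjusted p = 0.112). Upward, Obp83ef differed by 0.60 ± 0.15, Gr2a by 0.56 ± 0.09 and the acid receptor gene Ir75a by 0.56 ± 0.10, with adjusted p-values of 0.122, 0.0662 and 0.0715. Both mutant arrays lay above both controls for 75 of the 212 genes and below for 17, beside 41.4% and 16.5% of all genes, and the median difference was 0.07 beside 0.08. Obp28a is a case of discordant replicates: it read 8.74 and 5.44 in disc controls and 5.08 and 5.85 in mutants (-1.62 ± 1.09 or 3.07-fold, adjusted p = 0.465), so that 1 control was above both mutants and the other between them.

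Of the accessory genes 0 of 40 were called by limma between the disc groups, with 10 at an unadjusted p under 0.05 beside 25.9% of all genes, and of the 20 genes of chemosensory neuron development lz alone, a transcription factor of olfactory sensilla, eye and blood cells, rose by 0.64 ± 0.09 (adjusted p = 0.0436). In the 3 larval comparisons limma called 0 of the 40 and 0 of the 20. At an unadjusted p under 0.05 were 4, 7 and 6 of the 40 and 4, 3 and 2 of the 20, for Jarid2 mutants, labelled E(z) RNAi and the direct comparison, beside 10.1%, 14.4% and 15.5% of all genes.

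The difference between the Jarid2 effects in discs and in larvae was tested over all 10 arrays and was called for 4 of the 212 genes, where 3.66% of all genes were called (0.968% higher and 2.7% lower). For Obp99b it was -4.00 ± 0.43 (limma adjusted p = 0.00227), with larval controls at 15.17 and 15.24 and larval mutants at 15.21 and 15.23. Those larval values are the top of the array range: Obp99b had the highest group mean of all 11982 genes in each larval group. A larval difference could be hidden there, so this value carries the disc fall and does not show that the tissues differ, under any alternative run.

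For Ir68a the difference of effects was 0.90 ± 0.17 (adjusted p = 0.0299), with larval controls at 6.08 and 6.27 and larval mutants at 6.29 and 6.21. For Ir100a it was -1.08 ± 0.22 (adjusted p = 0.044), with disc controls at 4.14 and 4.27 and disc mutants at 4.08 and 4.43. For Or67a, an antennal odorant receptor gene, it was 0.78 ± 0.16 (adjusted p = 0.0443). Or67a read 5.73 and 5.58 in larval controls and 5.14 and 5.25 in larval mutants, and 4.98 and 5.18 in disc controls and 5.37 and 5.43 in disc mutants, and it was called in neither tissue (-0.46, adjusted p = 0.287 in larvae and 0.33, adjusted p = 0.178 in discs). These 3 calls were lost in 11 of 18, 14 of 17 and 15 of 18 alternatives, and each was lost without either disc control and without either disc mutant array.

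Gr97a (3.17 ± 0.68, adjusted p = 0.0584), Obp56i (1.59 ± 0.43, adjusted p = 0.131), Obp58c (0.88 ± 0.33, adjusted p = 0.309), Obp18a (-1.33 ± 0.37, adjusted p = 0.14), Gr32a (-0.89 ± 0.22, adjusted p = 0.105) and Obp28a (-1.32 ± 1.26, adjusted p = 0.798) were not called for the difference of effects. Gr97a was called in 5 of 17 alternatives. In discs Gr97a read 4.04 and 3.82 without the mutation and 3.76 and 4.25 with it, with no separation. Among other genes Galphao, a G protein subunit, differed by -1.14 ± 0.24 (adjusted p = 0.0499), and sens, a factor of sensory precursor cells, by 1.38 ± 0.27 (adjusted p = 0.0405). They were 1 of 40 accessory genes and 1 of 20 genes of chemosensory neuron development, beside 3.66% of all genes called. Neither call, nor that of lz in discs, was followed through the alternatives.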

How the data were processed

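The deposited table holds log2 values for each probe set, judged from their range. Of the authors' steps, the submitters' processing notes give only limma 3.4.3; the background correction, normalization and probe set summary are not stated in the sources used here. Of 18952 probe sets 183 array controls were left out, and 18769 were tested. Of these, 13647 name 1 gene in the platform annotation, 402 name several and 4720 have no gene. All 212 members matched the reference gene table. The 9 probe sets that name a gene of these families together with another gene were not used.

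Groups were compared with limma 3.58.1 (lmFit, eBayes) in R 4.3.3, two-sided, without covariates, on the 6 larval arrays, the 4 disc arrays or, for the difference of effects and the tissues, all 10. Larvae and discs were fitted apart because larval replicates spread more, and an estimate of spread shared with discs raised the number of larval calls. The Benjamini-Hochberg adjustment ran over 18769 probe sets, with calls under 0.05. On simulated data of 18769 probe sets the fit recovered 64% of 2-fold rises in larval Jarid2 mutants and 96% in disc mutants. Recovery was 52.7% for labelled E(z) RNAi, 55.3% for the direct comparison and 41.3% for the difference of effects. False calls made up 6.53%, 7.47%, 6.53%, 6.67% and 7.1% in that order, above the threshold of 0.05. The noise was normal and independent between arrays, with each probe set's spread moderated by limma. Array effects and discordant replicates like those of Obp28a were not modelled, so recovery in the real data may be lower. With 2 arrays per group, array number limits the precision. Summed levels are log2 of summed linear values.

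Named genes were the called members and the largest separated uncalled differences, the co-receptors and well-known receptors, those next to log2 6, the 5 brightest of each family in each control group, and Gr97a. Members and lists were chosen with earlier results of these data known. Alternatives were other scalings, fits, filters and levels, the replicate number as a block and leaving out arrays. Figures used matplotlib 3.10.9.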

Additional observations from a re-analysis of the deposited data

Results flagged for a closer look

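The Jarid2 effect was called different between discs and larvae, by a test of the difference itself, for Ir68a (0.90 on the log2 scale), Or67a (0.78) and Ir100a (-1.08). Those calls were lost in 11 of 18, 15 of 18 and 14 of 17 alternatives, and Or67a was called in neither tissue. The same test passed for Obp99b (-4.00), but its larval values were the highest of all genes in each larval group, where a larval difference could be hidden, so no difference between the tissues is read from it. Obp18a was picked out because both larval mutant arrays lay above both larval controls and both disc mutant arrays below both disc controls, and its difference of effects of -1.33 did not pass the test (limma adjusted p = 0.14). It was called when either labelled E(z) RNAi array was left out (adjusted p = 0.0221), an array that enters only the estimate of the spread.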

How the results depend on the processing

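Counts of called members moved with the setting. For larval Jarid2 mutants against controls (1 as reported) they were 4 in the fit of all 10 arrays, 3 with median centring and 3 with the crossed block, and 0 with the 2 compared groups alone, either quantile normalization, without the dimmest 30%, array weights, the replicate block and the mean of all probe sets. For labelled E(z) RNAi against controls (1) they were 7 in the fit of all 10 arrays, 3 with the crossed block, 2 with an intensity trend, and 0 with the 2 groups alone, either quantile normalization, without the dimmest 30%, array weights, the replicate block and the mean of probe sets. For Jarid2 mutants against labelled E(z) RNAi (2) they were 14 in the fit of all arrays, 6 with a trend, 6 with array weights, 1 with the 2 groups alone, without the dimmest 30% or with the mean of probe sets, and 0 with quantile normalization of all arrays or the replicate block. For discs (3) they were 0 with quantile normalization of all arrays and 5 with the mean of probe sets. For the difference of effects (4) they were 1 with quantile normalization of all arrays, 2 with centring and 1 with the replicate block. For the tissues (128) they were 201 with centring and 41 without the dimmest 30%. Leaving out 1 array gave 0 to 1, 0 to 0, 0 to 1, 0 to 2, 1 to 4 and 100 to 131 in the same order. Without the dimmest 30%, members among the probe sets left out could not be called, and the number of members left is not given. The 0 for larval Jarid2 mutants and the 41 for the tissues can thus reflect members not tested as well as calls lost. Against larval controls, Ir100a, the member called in Jarid2 mutants, had results in 16 alternatives, where Gr97a had 17.

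Genes above the level in larval controls, larval Jarid2 mutants, labelled E(z) RNAi larvae, disc controls and disc mutants were 76, 69, 90, 37 and 41 at log2 5. At log2 7 they were 18, 17 and 17 in larvae and 5 in disc mutants. Above each array's median they were 15, 15 and 16 in larvae and 17 in disc mutants. Quantile normalization of all arrays gave 21 in larval controls, 19 in labelled E(z) RNAi larvae, 36 in disc controls and 41 in disc mutants, and centring gave 50 and 59 in discs.

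Replicate differences correlated at -0.42 and -0.21 between larval controls and the other larval groups and at 0.09 between the disc groups, so the numbers were not taken to pair samples; the crossed block, with the control numbers exchanged, was chosen after seeing the data. The 1 difference that changed sign was the uncalled difference of Jarid2 effects of Obp28a (-2.97 without disc control 2 and 0.33 without disc control 1). The causes of these changes were not tested. No detection calls or background signals were at hand, so the limit of detection is unknown, and small differences of dim genes cannot be told from noise with 2 arrays per group.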
